A study of Mus musculus with 50 samples.

Results

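Arntl, Clock, Npas2, Rora, Dbp, Tef, Hlf and Nfil3 are the transcription factors that drive the positive side of the circadian clock and its D-box output, and these 8 genes were taken by symbol from tables of 55414 gene rows in quadriceps and in perigonadal white adipose tissue (pgWAT) at 1 h, and of 55401 rows in pgWAT at 6 h. All 8 were present in each table. The libraries came from male mice that carry hM3Dq, an engineered receptor that lets clozapine N-oxide (CNO) activate the neurons that hold it. In TG mice a Cre recombinase under Gfral, the receptor of the hormone GDF15, switches hM3Dq on in Gfral neurons, and WT mice carry hM3Dq without Cre. CNO was given to TG and WT mice alike, at 1 mg/kg, and every comparison is TG against WT after that drug, and no group without CNO was analysed here. The sets were quadriceps of clamped mice (10 TG, 10 WT), pgWAT 1 h after CNO (9 TG, 9 WT) and pgWAT 6 h after CNO (6 TG, 6 WT). The labels give no clock time of collection, no age, and do not say whether the libraries of a group are different mice, and p-values thus rest on library-to-library variation that may be technical.

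In the mammalian clock, BMAL1, the product of Arntl, pairs with CLOCK or its paralog NPAS2 and binds E-boxes in the genes of the PER, CRY and REV-ERB repressors and of Dbp. RORA activates, and the REV-ERB proteins repress, genes with a RORE element, among them Arntl and Nfil3, so that Arntl and Dbp peak at opposite phases in most tissues. DBP, TEF and HLF are the PAR bZIP activators, which bind D-boxes in output genes, and NFIL3 is the bZIP repressor that binds the same elements.

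The promoter windows of the 8 genes, from 250 bases before to 50 bases after each start in RefSeq on GRCm38.p6, were searched on both strands for the E-box CACGTG, the D-boxes TTATGTAA and TTACGTAA, the RORE (TAGGTCA preceded by any base and, before that, a pair of bases that are each A or T) and the glucocorticoid response element (GNACA and TGTNC with 3 bases of any kind between them). The sites found are shown because they are the elements through which the family members are known to control one another. Capitals mark the motif, in 30 bases read 5′ to 3′ on the strand of the gene.
Arntl RORE: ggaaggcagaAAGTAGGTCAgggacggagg
Nfil3 RORE: cgctcggaacTGACCTACTAacacacatct
Tef E-box, window 1: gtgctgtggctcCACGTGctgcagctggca
Tef E-box, window 2: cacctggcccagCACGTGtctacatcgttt
The Arntl site is at chr7:113207528-113207557 (plus strand), with the motif at bases 28 to 37 after an annotated start. The Nfil3 site is at chr13:52981032-52981061 (gene on the minus strand), with the motif at bases -12 to -3 and on the opposite strand to the gene. The Tef sites are at chr15:81802534-81802563 and chr15:81811264-81811293 (plus strand), before 2 different starts. A RORE was thus in the windows of 2 of the 8 genes, against 0.788% of all 27025 genes with a window, and an E-box in those of 1 of 8, against 8.093% of genes. Counted over all 32851 windows, the shares were 0.715% for the RORE and 7.15% for the E-box. No window of the 8 genes held these D-box letters, found in 1.056% of windows, or the glucocorticoid element, found in 0.475%. A match is a description of letters and not of binding, and other letters or places were not searched.

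Libraries held 959980 to 2613672 gene counts in quadriceps, 976610 to 4852560 at 1 h and 9150496 to 12883462 at 6 h. The limit that a count of 0 allows, 3 counts, was therefore 1.15 to 3.13, 0.618 to 3.07 and 0.233 to 0.328 counts per 1000000 (CPM), for counting error only. The muscle creatine kinase Ckm had a median of 3675 CPM in quadriceps and of 0 CPM in pgWAT at both times, and the adipokine Adipoq had 3005 CPM in pgWAT at 1 h, 5221 CPM in pgWAT at 6 h and 70.3 CPM in quadriceps. Some libraries stood apart, with summed liver, duct epithelium or inducible heat shock transcripts over 5 times the median of their set. They were 1 TG and 2 WT libraries in quadriceps, 3 TG and 6 WT libraries in pgWAT at 1 h and TG replicate 2 in pgWAT at 6 h. The liver, duct epithelium, mesothelial, macrophage, lymphocyte and endothelial lists held no gene past the test in any set, though in quadriceps only the macrophage and endothelial lists had genes high enough to test. Of the inducible heat shock transcripts Dnajb1 rose and Hspa1b fell in pgWAT at 6 h. Skeletal muscle markers summed to 63.3 to 120.9 CPM in TG and 24.1 to 51.9 CPM in WT at 6 h, with 1 of 3 tested genes (Acta1) called and Ckm at a median of 0, and adipocyte markers to 29303 to 36216 CPM in TG and 29484 to 37466 CPM in WT, with Cidec, a lipid droplet protein gene, called higher (log2 0.38) among 6 tested. The part of these transcripts in the members' changes was not tested. In bulk tissue, fewer cells of a type and less RNA per cell cannot be told apart.

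Values are CPM after TMM scaling, and changes are log2 of TG over WT with standard error (SE), by the quasi-likelihood test of edgeR, with p adjusted by Benjamini-Hochberg over all genes of a set and a threshold of 0.05. In pgWAT at 6 h 4 of 8 genes passed, Clock, Rora and Nfil3 higher and Dbp lower, where 14.4% of all 14359 genes tested passed (6.88% higher, 7.54% lower). In pgWAT at 1 h 0 of 8 passed, where 0.0722% of 11087 genes did, and in quadriceps 0 of 7 passed, where 2.04% of 8070 did. At an unadjusted edgeR p under 0.05 the single gene was Arntl at 1 h and Rora in quadriceps. That p was reached by 516 of all 11087 genes tested at 1 h and by 946 of 8070 in quadriceps. DESeq2 called 0 of the genes in either set. Npas2 was below the filter on low counts in quadriceps.

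**Figure D1:**
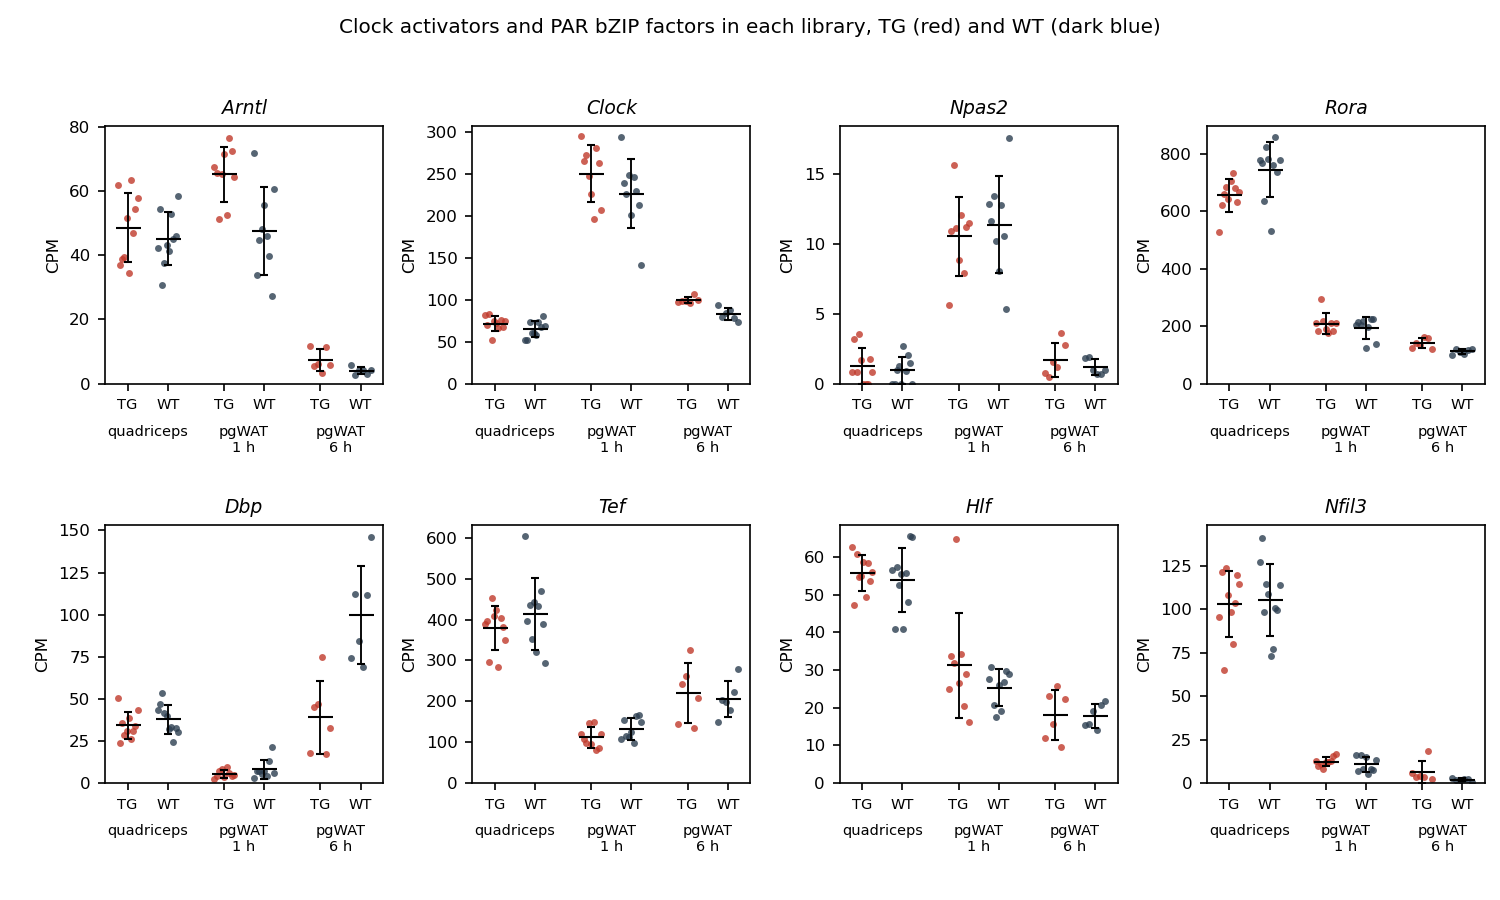
CPM (vertical axes, linear) of the 8 genes in every library, TG left of WT, in quadriceps, pgWAT at 1 h and pgWAT at 6 h. Each point is a library, the horizontal mark is the mean and the bar is 1 SD, cut at 0 for Npas2 in quadriceps. Dbp was 39.1 CPM in TG and 99.7 CPM in WT at 6 h, and the Clock values of the 6 TG libraries at 6 h all lay above those of WT.

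Among the activators, Arntl encodes BMAL1, a partner with which CLOCK and NPAS2 act (chr7:113207465-113314126, plus strand, GENCODE vM21 on GRCm38). At 6 h Arntl had 11.6, 5.60, 6.11, 3.37, 11.3 and 5.80 CPM in the TG libraries 1 to 6, against 5.97, 2.77, 4.14, 4.38, 2.99 and 4.11 CPM in the WT libraries 1 to 6. TG replicates 1 and 5 were the highest of all 12, TG replicates 2, 4 and 6 lay inside the WT range, and 3 of 6 TG libraries exceeded the highest WT library. The means were 7.30 ± 3.37 CPM in TG and 4.06 ± 1.15 CPM in WT (SD, n = 6 each), a log2 difference of 0.85 (SE 0.283) that missed the threshold in edgeR (adjusted p = 0.0565). DESeq2 called Arntl higher (adjusted p = 0.0247), and so did edgeR without WT replicate 1 (0.0395) or without TG replicate 4 (0.0139), so the call depended on the tool and on single libraries. At 1 h Arntl was 51.2 CPM at the lowest, 65.5 at the median and 76.6 at the highest in TG, against 27.2, 45.9 and 71.8 CPM in WT. All 9 TG libraries exceeded the WT mean, with means of 65.2 ± 8.56 CPM in TG and 47.6 ± 13.7 CPM in WT (SD, n = 9 each). The log2 difference of 0.44 (SE 0.144) did not pass after adjustment (edgeR, p = 0.00518, adjusted p = 0.766), and was 0.33 without the libraries that stood apart. In quadriceps Arntl averaged 48.6 ± 10.7 CPM in TG and 45.2 ± 8.31 CPM in WT (SD, n = 10 each), a log2 difference of 0.11 with a 95% interval of -0.14 to 0.36.

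Clock, which encodes the partner of BMAL1 (chr5:76209868-76304792, minus strand), rose modestly and evenly at 6 h. The TG libraries 1 to 6 had 97.5, 98.1, 98.5, 96.1, 106.4 and 99.002 CPM, against 93.7, 79.2, 84.1, 87.5, 78.2 and 73.2 CPM in the WT libraries. The groups did not overlap, as for 7.66% of the genes tested in this set, and the spread was small in both. The means were 99.3 ± 3.61 CPM in TG and 82.7 ± 7.35 CPM in WT (SD, n = 6 each), a log2 change of 0.26 (SE 0.064; edgeR adjusted p = 0.0085). With library totals in place of TMM scaling the change was 0.20 and did not pass (adjusted p = 0.0697). That scaling also moved the split of all calls at 6 h to 665 higher and 1463 lower, from 988 higher and 1083 lower with TMM. At 1 h Clock averaged 250.02 ± 33.8 CPM in TG and 226.1 ± 41.5 CPM in WT, and in quadriceps 71.6 ± 8.84 CPM in TG and 64.7 ± 9.63 CPM in WT. Neither difference passed (edgeR adjusted p = 0.9998 and 0.591), and at 1 h the log2 difference of 0.15 was -0.01 without the libraries that stood apart.

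Npas2, the paralog that can replace CLOCK (chr1:39193731-39363236, plus strand), was scarce at 6 h, with 0.466 to 3.61 CPM in TG and 0.661 to 1.91 CPM in WT. The groups overlapped and the log2 difference of 0.55 (SE 0.45) did not pass (edgeR adjusted p = 0.485), and was 0.19 without TG replicate 5. At 1 h it averaged 10.5 ± 2.83 CPM in TG and 11.4 ± 3.47 CPM in WT (SD, n = 9 each; edgeR adjusted p = 0.9998). In quadriceps the 10 TG libraries together held 15 counts and the 10 WT libraries 16 counts, too few for a test.

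Rora, the RORE-binding activator of Arntl (chr9:68653786-69388246, plus strand), rose at 6 h. It had 123, 143, 136, 163, 159 and 120 CPM in the TG libraries 1 to 6, against 99.8, 122, 112, 105, 118 and 121 CPM in the WT libraries. Of the TG libraries 5 of 6 exceeded the highest WT library, and TG replicate 6 lay just inside the WT range. The means were 141 ± 17.6 CPM in TG and 113 ± 8.98 CPM in WT (SD, n = 6 each), a log2 change of 0.32 (SE 0.081; edgeR adjusted p = 0.0128). Rora passed in each of the 19 alternative settings and leave-one-out fits of this set, with changes between 0.25 and 0.36. In quadriceps it pointed the other way, with 527 CPM at the lowest, 665 at the median and 735 at the highest in TG, against 531, 773 and 859 CPM in WT. All 10 TG libraries lay below the WT mean of 745.8 CPM, but the log2 difference of -0.18 (SE 0.071) did not pass (edgeR, p = 0.0139, adjusted p = 0.232), except without WT replicate 6, itself the lowest WT library (-0.23, adjusted p = 0.0362). At 1 h Rora averaged 208.6 ± 36.2 CPM in TG and 194.2 ± 37.3 CPM in WT (SD, n = 9 each; adjusted p = 0.9998).

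Of the PAR bZIP activators, Dbp, a direct E-box target of the clock (chr7:45705088-45710203, plus strand), fell at 6 h. It had 18.1, 45.1, 46.7, 74.9, 17.4 and 32.4 CPM in the TG libraries 1 to 6, against 74.4, 112.5, 84.3, 69.2, 111.8 and 145.9 CPM in the WT libraries. TG replicates 1 and 5 were far below all WT libraries, 5 of 6 TG libraries lay below the lowest WT library, and TG replicate 4 reached into the WT range. The means were 39.1 ± 21.6 CPM in TG and 99.7 ± 29.2 CPM in WT (SD, n = 6 each), a log2 change of -1.35 (SE 0.364, 95% interval -2.16 to -0.54; edgeR adjusted p = 0.0317). The adjusted p crossed the threshold when any of WT replicates 2, 5 and 6 or TG replicates 1, 2, 3 and 6 was left out (0.0508 to 0.0686), while the change stayed between -1.65 and -1.20 in all 12 such fits. At 1 h the TG libraries held 3 to 27 counts of Dbp and the WT libraries 7 to 32, giving 5.46 ± 2.32 CPM in TG and 8.24 ± 5.62 CPM in WT (SD, n = 9 each). The log2 difference of -0.51 did not pass (95% interval -1.18 to 0.17; edgeR adjusted p = 0.9998) and was -0.23 without WT replicate 8. In quadriceps Dbp averaged 34.2 ± 8.21 CPM in TG and 37.8 ± 8.77 CPM in WT (SD, n = 10 each), a log2 difference of -0.13 with an interval of -0.41 to 0.15.

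Dbp overlaps Sphk2, the sphingosine kinase gene on the opposite strand. The strand setting of the counting is not given in the sources used here. Sphk2, named after its values were seen, had 25.9 ± 2.23 CPM in TG and 26.0 ± 1.90 CPM in WT at 6 h (SD, n = 6 each), a log2 difference of -0.01 (edgeR adjusted p = 0.955). Its differences at 1 h and in quadriceps were -0.06 and -0.02. Other gene models also overlap Arntl, Rora and Tef on the opposite strand, Clock on the same strand and Npas2 on both strands. Reads of opposite-strand models cannot be told apart from the genes' own if strand was not used. Use of strand would not separate the same-strand models of Clock and Npas2.

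Tef, the PAR bZIP activator with the E-box matches above (chr15:81802421-81826863, plus strand), did not pass at 6 h. It had 145, 242, 263, 327, 135 and 207 CPM in the TG libraries 1 to 6, against 149, 204, 198, 179, 223 and 280 CPM in the WT libraries. The TG libraries held both the highest value and the 2 lowest, so the groups overlapped fully. The means were 220 ± 73.1 CPM in TG and 205 ± 44.2 CPM in WT (SD, n = 6 each), a log2 difference of 0.10 with an interval of -0.40 to 0.59 (edgeR adjusted p = 0.829). At 1 h Tef averaged 112 ± 24.9 CPM in TG and 132 ± 25.9 CPM in WT, with 4 of 9 TG libraries below the lowest WT library (log2 -0.25, p = 0.077, edgeR adjusted p = 0.9998). In quadriceps it averaged 379 ± 53.7 CPM in TG and 414 ± 87.6 CPM in WT (SD, n = 10 each; edgeR adjusted p = 0.735).

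Hlf, the remaining PAR bZIP activator (chr11:90336536-90390895, minus strand), had 12.0, 23.0, 15.7, 25.8, 9.54 and 22.2 CPM in the TG libraries at 6 h, against 15.4, 15.7, 19.2, 13.97, 20.6 and 21.9 CPM in the WT libraries. TG replicates 1 and 5 were again the lowest and TG replicate 4 the highest. The means were 18.1 ± 6.60 CPM in TG and 17.8 ± 3.21 CPM in WT (SD, n = 6 each), a log2 difference of 0.02 with an interval of -0.46 to 0.51 (edgeR adjusted p = 0.960). At 1 h Hlf averaged 31.3 ± 13.99 CPM in TG and 25.3 ± 4.89 CPM in WT (SD, n = 9 each), with TG replicate 4, one of the libraries that stood apart, at 64.9 CPM. That log2 difference of 0.31 did not pass (edgeR adjusted p = 0.9998) and was 0.10 without TG replicate 4. In quadriceps Hlf averaged 55.7 ± 4.81 CPM in TG and 53.9 ± 8.58 CPM in WT (SD, n = 10 each; edgeR adjusted p = 0.903).

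Nfil3, the bZIP repressor of D-box genes with the RORE match above (chr13:52967209-52981073, minus strand), rose at 6 h from few counts. The TG libraries 1 to 6 had 6.02, 3.26, 3.99, 3.29, 18.6 and 2.17 CPM, against 2.66, 1.73, 1.504, 2.07, 2.53 and 0.639 CPM in the WT libraries, which is 27 to 216 counts in TG and 7 to 29 counts in WT. TG replicate 5 stood far above the rest, 5 of 6 TG libraries exceeded the highest WT library, and TG replicate 6 lay inside the WT range. The means were 6.22 ± 6.18 CPM in TG and 1.86 ± 0.745 CPM in WT (SD, n = 6 each), a log2 change of 1.74 (SE 0.53; edgeR adjusted p = 0.0442). Without TG replicate 5 the change was 1.00 and did not pass (adjusted p = 0.0572), and it missed the threshold too when any WT library or TG replicate 1 or 3 was left out (0.0530 to 0.0891). At 1 h Nfil3 averaged 12.3 ± 2.64 CPM in TG and 10.7 ± 4.39 CPM in WT (SD, n = 9 each; edgeR adjusted p = 0.9998), and in quadriceps 103.0 ± 19.03 CPM in TG and 105.4 ± 20.8 CPM in WT (SD, n = 10 each; adjusted p = 0.970).

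**Figure D2:**
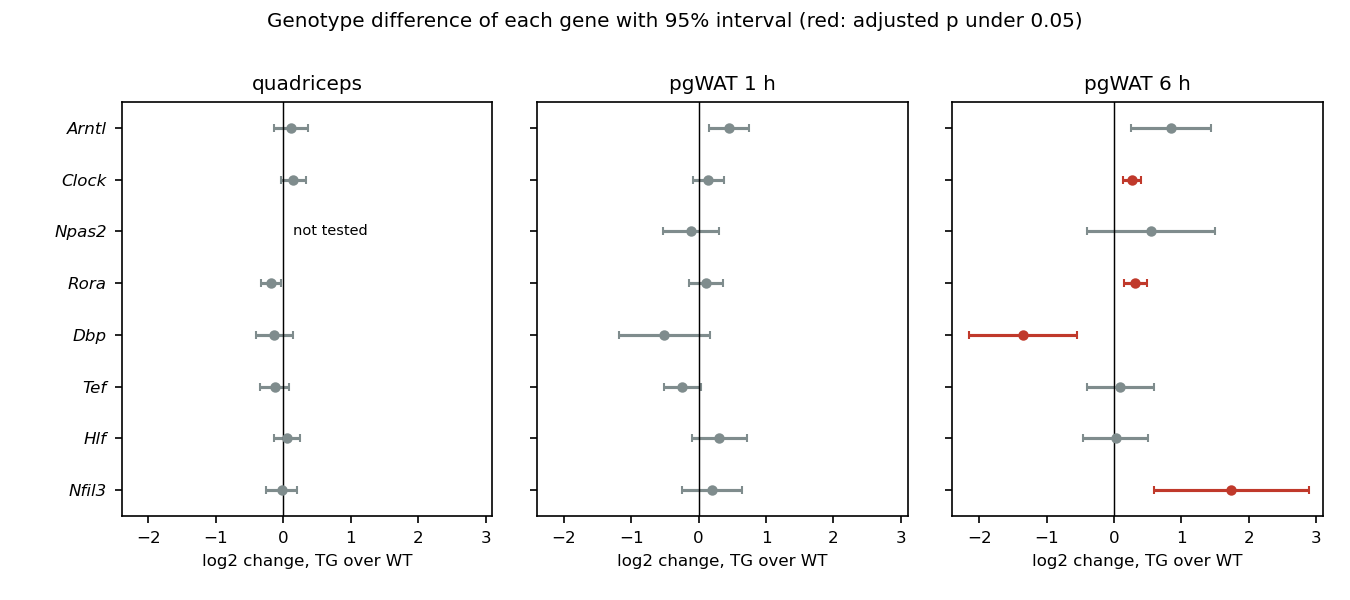
Log2 change of TG over WT (horizontal axes) with its 95% interval for the 8 genes in the 3 sets, red where the edgeR adjusted p is under 0.05. At 6 h Clock, Rora and Nfil3 lie right of 0 and Dbp left of it at -1.35, while in quadriceps and at 1 h all points are grey.

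The differences between sets were tested directly, as the genotype effect at 6 h minus the genotype effect in the other set. Against quadriceps, 3 of 7 genes differed, where 5.09% of 10729 genes did (3.01% higher, 2.08% lower). The effect on Rora was higher by 0.50 (SE 0.115; edgeR adjusted p = 0.00422; passed in all 39 alternative fits), that on Nfil3 higher by 1.76 (SE 0.474; adjusted p = 0.0238) and that on Dbp lower by 1.22 on the log2 scale (SE 0.363; adjusted p = 0.0455). The Dbp difference passed in 12 of 32 fits that left out a library and missed the threshold in the others (adjusted p up to 0.0885). It also missed the threshold with no filter on low counts (edgeR adjusted p = 0.107), with the replicate block (0.0798) and without the libraries that stood apart (0.0690). The Nfil3 difference missed it without WT replicate 6 of the 6 h set (0.0534) or with no filter on low counts (0.0503). Without TG replicate 5 of the 6 h set the Nfil3 difference was 1.0085 and passed. For Clock the effects differed by 0.11 with an interval of -0.13 to 0.35 (adjusted p = 0.740), so a difference between fat at 6 h and muscle is not shown for it. Against pgWAT at 1 h, 0 of 8 genes differed, where 4.21% of 13022 genes did. An unadjusted edgeR p under 0.05 was reached by 1985 of all 13022 genes tested. Among the 8 genes only Nfil3 reached it, with a difference of 1.54 (interval 0.50 to 2.57; edgeR p = 0.00494, adjusted p = 0.0875), which DESeq2 called (adjusted p = 0.0479). Without TG replicate 6 of the 6 h set it was 1.71 and passed in edgeR (adjusted p = 0.0418), and without TG replicate 5 it was 0.80 and did not (adjusted p = 0.327). For Dbp it was -0.86 (interval -1.90 to 0.19; adjusted p = 0.467) and for Arntl 0.40 (interval -0.22 to 1.02; adjusted p = 0.604). Library kit coincides with time in fat, and tissue, clamp and kit coincide between fat at 6 h and quadriceps, so these cannot be told apart in such contrasts.

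The members differed in level between the fat sets within both genotypes. Dbp averaged 39.1 CPM in TG and 99.7 CPM in WT at 6 h, and 5.46 CPM in TG and 8.24 CPM in WT at 1 h, so that its 6 h level was 7.17 times that at 1 h in TG and 12.1 times in WT. Arntl ran the other way, with a level at 1 h 8.93 times that at 6 h in TG and 11.7 times in WT. Npas2 was likewise 6.16 times as high at 1 h in TG and 9.65 times in WT. For Dbp, Arntl, Npas2, Clock and Rora no library at 6 h overlapped a library of the same genotype at 1 h. The share of all genes without such overlap between these sets was not counted, so nothing particular to these genes is shown. Nfil3 was 1.98 times as high at 1 h in TG, with overlap, and 5.77 times in WT, without overlap. Tef was 1.97 and 1.55 times as high at 6 h in TG and WT, with overlap, and Hlf overlapped too. These tables were scaled separately, the 1 h and 6 h libraries were made with different kits, and no clock time is given, so time after CNO, time of day and kit cannot be told apart. Between tissues, quadriceps had the highest mean levels of Rora, Tef, Hlf and Nfil3 and pgWAT at 1 h the highest of Clock, Npas2 and Arntl. Neighbouring levels of Arntl in quadriceps and in pgWAT at 1 h overlapped in both genotypes.

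The members also varied together among fat libraries of the same genotype. After subtracting the genotype mean from log2 CPM (prior count 2), 22 relations were computed over the 3 sets, with a two-sided permutation test of 100000 resamples and adjustment over all of them. At 6 h, over 12 libraries, Dbp and Tef had Pearson r = 0.97 (permutation p = 6.0e-05, adjusted p = 0.00132) and Spearman rho = 0.99 (adjusted p = 0.00066). Dbp and Hlf had r = 0.84 (permutation adjusted p = 0.0259) and rho = 0.81 (adjusted p = 0.0370). Arntl and Dbp were opposed, with r = -0.88 (permutation p = 0.00206, adjusted p = 0.0151) and rho = -0.79 (adjusted p = 0.0370), and within each genotype r was -0.97 over the 6 TG libraries and -0.57 over the 6 WT libraries. Without the 2 libraries farthest from the median of the pair's first gene (Dbp, Dbp and Arntl) these r were 0.95, 0.70 and -0.75. Dbp and Nfil3 had r = -0.68, which did not pass (permutation adjusted p = 0.102), with rho = -0.76 (adjusted p = 0.0370), and r = -0.58 without the 2 farthest libraries. Arntl with Nfil3 (r = 0.56), with Clock (0.52) and with Npas2 (0.18) did not pass.

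At 1 h, over 18 libraries, Arntl and Dbp were again opposed, with r = -0.77 (permutation p = 0.00107, adjusted p = 0.0118) and rho = -0.64 (adjusted p = 0.0370). The r was -0.51 without the 2 farthest libraries and -0.65 over the 9 libraries that did not stand apart. Dbp and Tef had r = 0.63 (permutation adjusted p = 0.0250) and rho = 0.54 (adjusted p = 0.0971). Over the 9 libraries that did not stand apart that r was -0.02, so it did not hold without them. The library numbers of the labels run in steps of 8, and in the 12 libraries at 1 h with a remainder of 3 on division by 8 the r values were -0.63 for Arntl with Dbp and 0.55 for Dbp with Tef. In quadriceps, over 20 libraries, none of 6 relations passed, with r = -0.05 for Arntl and Dbp and 0.19 for Dbp and Tef (permutation adjusted p = 0.857 and 0.635). Members share the library and its depth, and Dbp rested on 3 to 32 counts per library at 1 h.

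**Figure D3:**
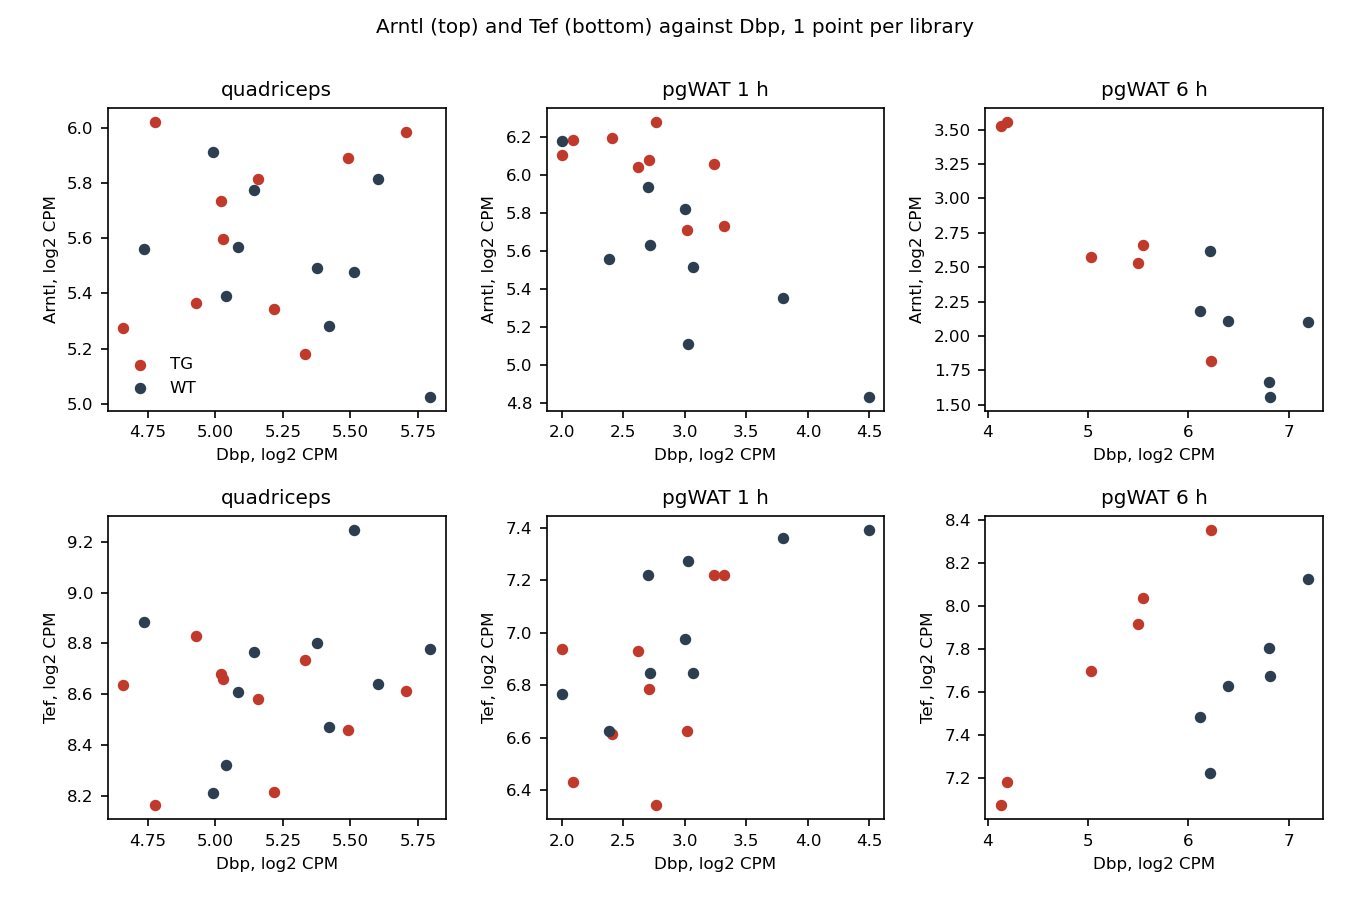
Log2 CPM of Arntl (top row) and Tef (bottom row) against log2 CPM of Dbp, a point per library, TG red and WT dark blue, in the 3 sets. In pgWAT at 6 h Arntl is lower where Dbp is higher (r = -0.88 after subtracting genotype means) and Tef is higher where Dbp is higher (r = 0.97), and quadriceps shows no such relation (r = -0.05 and 0.19).

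The spread within the TG group at 6 h followed the same axis. TG replicates 1 and 5 had the lowest Dbp, Tef and Hlf of the 12 libraries and the highest Arntl and Nfil3. TG replicate 4 had the highest Tef and Hlf of the 12 libraries, the highest Dbp of the TG libraries and the lowest Arntl of the TG libraries. Clock too was highest in TG replicate 5 and, among the TG libraries, lowest in replicate 4, over a narrow range of 96.1 to 106.4 CPM.

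**Figure D4:**
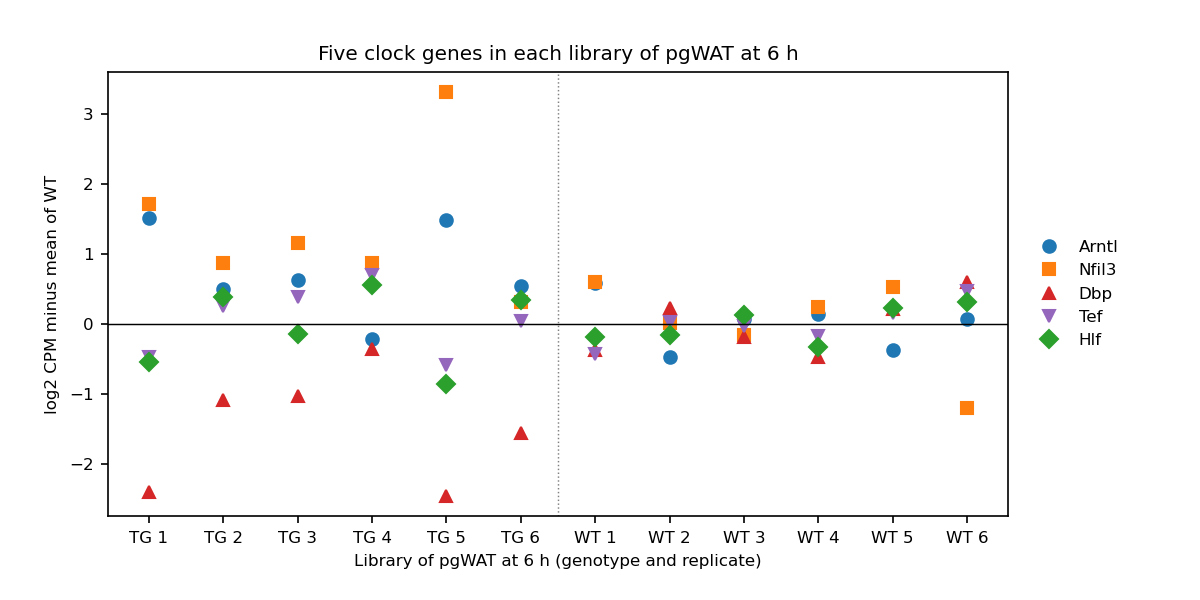
Log2 CPM of Arntl, Nfil3, Dbp, Tef and Hlf in each pgWAT library at 6 h (horizontal axis), minus the mean of the 6 WT libraries (vertical axis). TG replicates 1 and 5 are high in Arntl and Nfil3 and low in Dbp, and Dbp is below 0 in all 6 TG libraries.

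Over all 50 libraries, after subtracting group means, likeness to Dbp and Arntl was ranked among 7565 genes tested in all sets, as a description with no test. The genes most like Dbp were Tef (r = 0.65), the period gene Per3 (0.65) and the REV-ERB beta gene Nr1d2 (0.62), with Hlf at the fifth place (0.53). Those most opposed to Dbp were Arntl (-0.65), the depalmitoylase gene Abhd17b (-0.55) and the actin-binding protein gene Palld (-0.54). The genes most like Arntl were the cryptochrome gene Cry1 (0.54), the pentraxin gene Ptx3 (0.50) and the hyaluronan receptor gene Cd44 (0.49), with Nfil3 at the eighth place (0.47), and those most opposed were Dbp, Tef (-0.59) and Per3 (-0.57). The likeness of Dbp and Tef differed by set, from 0.19 in quadriceps to 0.63 at 1 h and 0.97 at 6 h. In the same order Per3 had 0.16, 0.67 and 0.96 with Dbp, and Nr1d2 had -0.13, 0.72 and 0.91. Of the opposed genes, Abhd17b had -0.59, -0.60 and -0.63 with Dbp, and Palld -0.24, -0.63 and -0.56. Cry1 followed Arntl in all 3 sets (0.61, 0.59 and 0.63). The likeness of Ptx3 to Arntl was -0.01 in quadriceps, 0.19 at 1 h and 0.76 at 6 h, and that of Cd44 was 0.45, 0.22 and 0.82.

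The other clock genes were described from lists of repressors, modifiers and outputs. At 6 h 3 of 10 repressors rose and 3 fell, where 6.88% of all genes tested rose and 7.54% fell, with a median log2 difference of 0.03, against 0.00156 for all genes. The E-box competitors Bhlhe40 and Bhlhe41 fell, Bhlhe40 to 11.1 ± 1.83 CPM in TG, against 40.7 ± 11.6 CPM in WT (log2 -1.87, edgeR adjusted p = 7.39e-06). Cry2 averaged 68.7 ± 7.21 CPM in TG and 46.4 ± 5.61 CPM in WT (log2 0.57), and Per1 70.6 ± 10.7 CPM in TG and 37.6 ± 10.5 CPM in WT (log2 0.91), and both rose. Cry1 rose too (0.60) and the REV-ERB alpha gene Nr1d1 fell by 0.76 on the log2 scale, both named after their values were seen. Per2, Per3, Nr1d2 and Ciart did not pass.

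Of 11 modifiers tested at 6 h none rose and 2 fell, against 6.88% and 7.54% of all genes, the casein kinase gene Csnk1e (-0.31) and the Arntl paralog Arntl2 (-0.75), with a list median of -0.11. Of 7 outputs 3 rose and none fell, against the same 6.88% and 7.54% of all genes, with a list median of 0.38. These were Nampt, the rate-limiting enzyme of NAD salvage, with 165 ± 24.0 CPM in TG and 76.04 ± 8.03 CPM in WT (log2 1.12), Alas1 of haem synthesis (0.67) and the cell cycle kinase gene Wee1 (0.99). The outputs Usp2, Por, Pdxk and Ppara did not pass. In quadriceps the single call among 10 repressors, 7 modifiers and 7 outputs tested was Bhlhe41, where 2.04% of all genes tested passed. Bhlhe41 rose to 143 ± 23.8 CPM in TG, against 98.6 ± 9.51 CPM in WT (log2 0.54, SD, n = 10 each). At 1 h none of 9 repressors, 8 modifiers and 7 outputs passed in edgeR, where 0.0722% of all genes did. Of these lists at 1 h 2, 0 and 0 genes had an unadjusted edgeR p under 0.05, as had 516 of all 11087 genes tested. In quadriceps 3 repressors, 1 modifier and 3 outputs had such a p, as had 946 of all 8070 genes tested. Beside these changes, all 9 glucocorticoid targets rose at 6 h, by 0.42 to 3.08 on the log2 scale, where 6.88% of all genes rose. In quadriceps 3 of 9 rose and 1 fell, where 89 of all 8070 genes tested rose and 76 fell. At 1 h 1 of 9 rose, where 6 of all 11087 genes tested did. Per1 is in that list and in the repressor list, and the part of glucocorticoids in the members' changes was not tested.

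**Figure D5:**
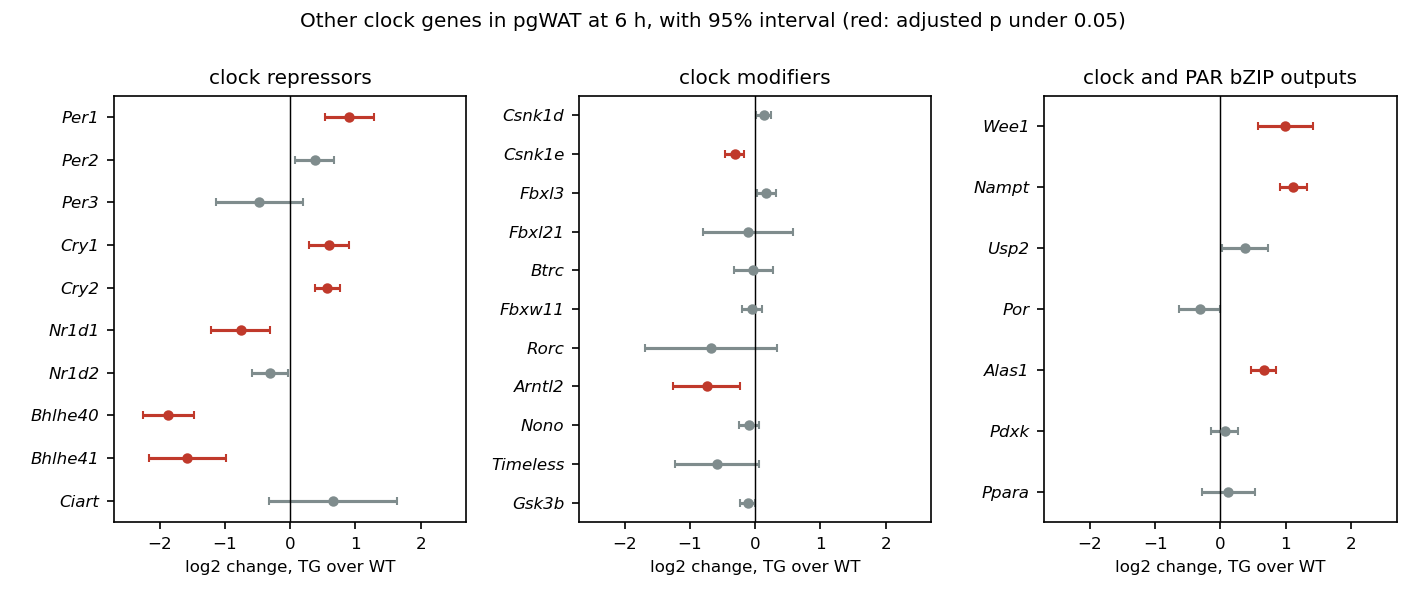
Log2 change of TG over WT (horizontal axes) with its 95% interval in pgWAT at 6 h for the tested repressors, modifiers and outputs of the clock, red where the edgeR adjusted p is under 0.05. Bhlhe40 lies farthest left at -1.87 and Nampt is the called output farthest right at 1.12.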

How the data were processed

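The deposited tables hold raw gene counts, whole numbers without normalization, from QuantSeq FWD 3′ mRNA libraries, per the labels' protocols. Quadriceps and 1 h libraries used a second strand module with molecular identifiers and dual indices, and 6 h libraries the standard kit. Tools named in the submitters' processing notes are STAR 2.7.10, cutadapt 1.18, UMI-tools 1.1.2 and bcl2fastq 2.20.0.422, with the builds GRCm38 and GRCm39. Which build, counting program and strand setting belong to each table, and whether identifiers were collapsed, are not given in the sources used here. Rows that are not genes (25.1%, 34.7% and 0.214% of counts in quadriceps, at 1 h and at 6 h) were left out. The 3 tables share 52338 gene identifiers, and no libraries of a set held identical counts.

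Samples were grouped by title. For quadriceps TG replicate 10 the treatment entry names 1 h although its title says clamped, which was taken as right. Each whole table was fitted with edgeR 4.0.16 in R 4.3.3 (filterByExpr by genotype, TMM, robust quasi-likelihood F test, Benjamini-Hochberg), which was tested on simulated data. The SE is the log2 change divided by the root of F. DESeq2 1.42.0, other scalings, no filter, single libraries left out, a replicate block, and the remainder of the library number on division by 8 were alternatives. Members and lists were chosen with earlier results of these data known, and no list was tested as a set. A gene of the output list is not reported here. Named by rule were all members, up to 4 called genes of each clock list and set by smallest p, and the 3 genes most and least like Dbp and Arntl.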

Additional observations from a re-analysis of the deposited data

Results flagged for a closer look

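Each of the 8 genes in each of 6 groups, 48 groups of values in all, was searched for a library far from the others of its group by Dixon's criterion, which chance meets in about 1 of 20 groups. In pgWAT at 1 h, Rora was 296 CPM in TG replicate 3, against 177 to 217 CPM in the other TG libraries, and Hlf was 64.9 CPM in TG replicate 4, against 16.1 to 34.2 CPM. Both libraries were among those with raised liver or duct epithelium transcripts. In pgWAT at 6 h, TG replicate 5 was far above the other TG libraries in Nfil3 (18.6 CPM, against 2.17 to 6.02 CPM) and in Clock (106.4 CPM, against 96.1 to 99.002 CPM).

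The genotype effect at 6 h in pgWAT differed from that in quadriceps, by edgeR's test of the difference itself, for Rora (0.50), Nfil3 (1.76) and Dbp (-1.22). Of all 10729 genes tested 5.09% differed. The Rora difference passed in all 39 alternative fits, while that of Nfil3 missed the threshold in 2 and that of Dbp in 23. Without TG replicate 5 of the 6 h set the Nfil3 difference was 1.0085.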

How the results depend on the processing

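For single genes, 785 fits with 1 library left out kept the direction and the side of the threshold, 37 lost the call, 5 gained it and 17 changed sign. Under other settings 261 kept both, 10 lost the call, 2 gained it and 7 changed sign. These totals include results that were not called and had no call to lose. Over both kinds of fit, calls at 6 h were lost for Dbp in 10 of 19 fits, Nfil3 in 11 and Clock in 1. Calls of 6 h against quadriceps were lost for Dbp in 23 of 39 fits and Nfil3 in 2. The cause of the exceptions below was not tested. With the libraries that stood apart left out, the log2 difference changed sign for Nfil3 in quadriceps (0.0951) and at 1 h for Clock (-0.006), Rora (-0.0826) and Nfil3 (-0.0217), and at 6 h for Hlf (-0.0551). Hlf at 6 h was also negative with library totals (-0.0451) and with the replicate block (-0.0324). Genes called at 1 h numbered 8, and 19 with DESeq2, 5 with no filter, 5 with the replicate block, 3 with the library number remainder as a factor, 1 without the libraries that stood apart and 3 to 12 with 1 library left out. Members called at 6 h numbered 4, and 2 with library totals (Dbp and Rora), 2 with no filter (Clock and Rora) and 2 to 5 with 1 library left out. Members called in quadriceps were 0 to 1 with 1 library left out. Members whose effect differed between 6 h and 1 h numbered 1 with DESeq2 and 0 to 1 with 1 library left out, and between 6 h and quadriceps 1 with no filter and 1 to 4 with 1 library left out. Nfil3 ran from -0.0803 to 0.0349 in quadriceps and Npas2 from -0.197 to 0.0022 at 1 h when single libraries were left out. At 6 h Tef ran from -0.0521 to 0.2044 and Hlf from -0.107 to 0.1547, and the difference of Hlf between 6 h and quadriceps from -0.1846 to 0.1005. At 1 h without the libraries that stood apart, r was -0.0241 for Dbp and Tef, 0.596 for Arntl and Clock, -0.402 for Dbp and Hlf and 0.334 for Npas2 and Dbp. Within 1 remainder of the library number, a split chosen after seeing the data, r was 0.515 for Arntl and Dbp, -0.421 for Arntl and Clock and -0.574 for Dbp and Nfil3 in quadriceps, and -0.332 for Arntl and Npas2 and 0.373 for Npas2 and Dbp at 1 h. Deviations of same-numbered libraries had mean correlations of 0.004, 0.059 and 0.006 in quadriceps, at 1 h and at 6 h, given with no test. Other pairs averaged -0.0003, -0.007 and -0.002. Same-numbered pairs over 0.1 numbered 3 of 10, 4 of 9 and 1 of 6, with a maximum of 0.373 at 1 h. With the replicate block Dbp at 6 h was -1.48 (edgeR adjusted p = 0.0798) and Nfil3 1.48 (0.0051). Upper quartile scaling split the calls of 6 h against quadriceps into 263 higher and 273 lower and library totals into 235 and 289, from 323 and 223. Dbp at 1 h without the libraries that stood apart was too low to test. Depth limits what can be said of Dbp and Npas2, which rested on few counts, Dbp at 1 h and Npas2 in quadriceps and at 6 h.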

Other observations

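Dbp and Tef moved in step within each genotype at 6 h but from different levels, and the ratio of their CPM, looked at after the values were seen and given with no test, separated the genotypes. In pgWAT at 6 h the ratio of Dbp to Tef ran from 0.125 to 0.229 in TG, with a median of 0.167, and from 0.387 to 0.550 in WT, with a median of 0.4995. The TG library with the highest Dbp, replicate 4, also had the highest ratio of the TG libraries, 0.229. That ratio was below the lowest WT ratio of 0.387, although Dbp in that library lay in the WT range. In pgWAT at 1 h the ratio was 0.0491 ± 0.0175 in TG and 0.0590 ± 0.0296 in WT (SD, n = 9 each), and in quadriceps 0.0919 ± 0.0249 in TG and 0.0935 ± 0.0229 in WT (SD, n = 10 each), with overlapping ranges. A ratio of 2 genes shows unequal change and does not say which of them changed.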
